A study of Rattus norvegicus with 8 samples.

Results

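The genes described here are 10 members of the AP-1 and immediate early group, read in adrenal glands of neonatal rats. They are the Jun family (Jun, Junb, Jund), the Fos family (Fos, Fosl1, Fosl2), Egr1, Atf3, Ier2 and Myc, and they were chosen by gene symbol in the array's annotation. They have 14 probe sets out of 15866 on the array and are 10 of 10411 genes named there. Rat pups were housed together with their dams in 12% O2 from birth until postnatal day 7 (hypoxic), or stayed in room air with dams that ate freely (normoxic). Each of the 4 hypoxic and 4 normoxic samples is a pool of 24 decapsulated glands on its own 1-colour array, so single animals cannot be seen. The labels name no strain, sex or litter, and p-values rest on the variation between pools, not between single animals. The question was which transcripts of the gland differ after a first week of life in low oxygen.

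Immediate early genes are transcribed within minutes of a stimulus without new protein synthesis, and their messages are short-lived. Jun and Fos proteins pair through leucine zippers to form AP-1, a transcription factor whose makeup sets how strongly its targets are transcribed. In the adrenal gland the cortex switches these genes on in response to ACTH and the chromaffin cells of the medulla do so when their nerve supply fires.

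Every value below is the intensity of a probe set, in the arbitrary units to which the authors scaled the arrays. All arrays had the same trimmed mean, and their medians lay between 228.6 and 249.2. The array's probe sets for bacterial sequences had a 95th percentile of 46.65, taken here as background. The markers of the labelled tissue were bright, with Star between 9377.9 and 13516.8 for the cortex and Th between 6420.4 and 11373.8 for the medulla. The outer cortex and capsule markers left after decapsulation summed to 2551.7 to 4047.8 in normoxic and 2475.2 to 3785.1 in hypoxic pools. Markers of other cells were present too. The summed level of 6 of 7 adipose markers ran from 2970.4 to 10157.4 in normoxic and from 1690.6 to 6898.5 in hypoxic pools, that of 9 leukocyte markers from 4367 to 5591.5 and from 3951.8 to 4770.9, that of 5 of 7 endothelial markers from 3566.3 to 4245.1 and from 3476.4 to 4178.6, and that of 6 fibroblast markers from 11159.9 to 22248.7 and from 14062 to 23242.1. The 4 erythroid markers on the array summed to 17787.7 to 20622.7 and to 18570.3 to 28663.7, and 9 chromaffin markers to 33000.8 to 44240.6 and to 38109.3 to 53102.3. Kidney and liver markers, 5 in all, summed to 568.3 to 1531.4 and to 576.1 to 2611.1, with hypoxic pool 1 the highest. The groups overlapped in each of these sums. Each sum adds raw intensities, so its brightest markers weigh most, as Hbb does in the erythroid sum. Single markers could differ more. Slc18a2, in the chromaffin sum, averaged 247.5 in normoxic and 502.9 in hypoxic pools. In the endothelial sum Pecam1 averaged 288.4 and 195.6, while Kdr averaged 1743.3 and 1874. Overlap of a sum therefore does not show that a cell type was equal in both groups. RNA integrity, read from the 5' signal of Gapdh divided by its 3' signal, came to 0.664 ± 0.0646 in normoxic and to 0.609 ± 0.0423 in hypoxic pools (SD, n = 4 each, exact permutation p = 0.2, two-sided). The same ratio for beta-actin was 0.607 ± 0.143 and 0.495 ± 0.190 (exact permutation p = 0.429), with hypoxic pool 1 lowest at 0.249. Their part in the results was not tested except where a fit with the adipose markers or the Gapdh ratio as a covariate is given. In pooled tissue, fewer cells of a type and less RNA per cell cannot be told apart.

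Within the Jun family the brightest Jun probe set was higher and Junb lower in every hypoxic pool than in any normoxic pool, but neither passed the threshold over the whole array. None of the 10 genes did. In limma, 0 of the 9 member probe sets bright enough to be tested passed an adjusted p of 0.05, where 20 of 11106 tested probe sets (0.18%) passed, 13 higher and 7 lower. At an unadjusted p of 0.05 the members had 2 of 9, against 8.64% of all tested probe sets. The smallest adjusted p of a member was 0.305 (limma, Benjamini-Hochberg over all tested probe sets). On the log2 scale 9 of all 14 member probe sets lay above 0 and 5 below. Among the 9 tested, 3 of them of Jun, 8 lay above 0 with a median of 0.15, where 45.2% of all tested probe sets lay above 0 with a median of -0.02.

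Jun encodes c-Jun, the main activating partner in AP-1. Its brightest probe set read 1050.9, 1033.8, 1095.6 and 1091 in normoxic pools 1 to 4 and 1320.3, 1383.5, 1184 and 1455.3 in hypoxic pools 1 to 4. All 4 hypoxic pools lay above the normoxic ones, as in 2.76% of all tested probe sets, and the normoxic pools lay close together. The mean went from 1067.8 ± 30.3 to 1336 ± 115 (SD, n = 4 each), a log2 difference of 0.32 (standard error 0.09; limma, adjusted p = 0.305). By p it ranked 188 of 11106.

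The other Jun probe sets leaned the same way with groups that overlapped. The second read 821.5, 892.9, 925.1 and 1100.3 in normoxic and 1049.7, 893.4, 1201.9 and 1316.2 in hypoxic pools, a log2 difference of 0.24 (95% interval from -0.05 to 0.53). The dimmest read 386.2, 470.3, 455.2 and 497.6 and then 414.8, 364.5, 674.4 and 572.1, a log2 difference of 0.12 (95% interval -0.26 to 0.51). Hypoxic pool 2, among the highest pools on the first probe set, was the lowest of all 8 pools on the dimmest. Without hypoxic pool 3 the dimmest probe set's difference turned to -0.02. The second and the dimmest probe sets rest on the same source sequence in the annotation and moved together over the 8 pools (r = 0.80), while the first and the dimmest did not (r = 0.05), so the gene's probe sets did not order the pools alike.

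Junb encodes JunB, which binds AP-1 sites with lower activity than c-Jun and can restrain it. Its probe set read 388.7, 477.2, 423 and 541.4 in normoxic pools 1 to 4. It read 378.6, 252.3, 249.3 and 359.3 in hypoxic pools 1 to 4. All hypoxic pools lay below the normoxic ones, as in 2.64% of all tested probe sets, although hypoxic pool 1 came within about 10 units of the lowest normoxic pool. The mean was 458 ± 66.7 in normoxic and 310 ± 68.7 in hypoxic pools (SD, n = 4 each), a log2 difference of -0.55 with a standard error of 0.16 and a 95% interval from -0.91 to -0.20 (limma, adjusted p = 0.306). This was 1.47 times more in normoxic glands, the widest difference among the tested members, and by p it ranked 190 of 11106. With the Gapdh ratio as a covariate the log2 difference was -0.45, and with the adipose markers -0.51.

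**Figure D1:**
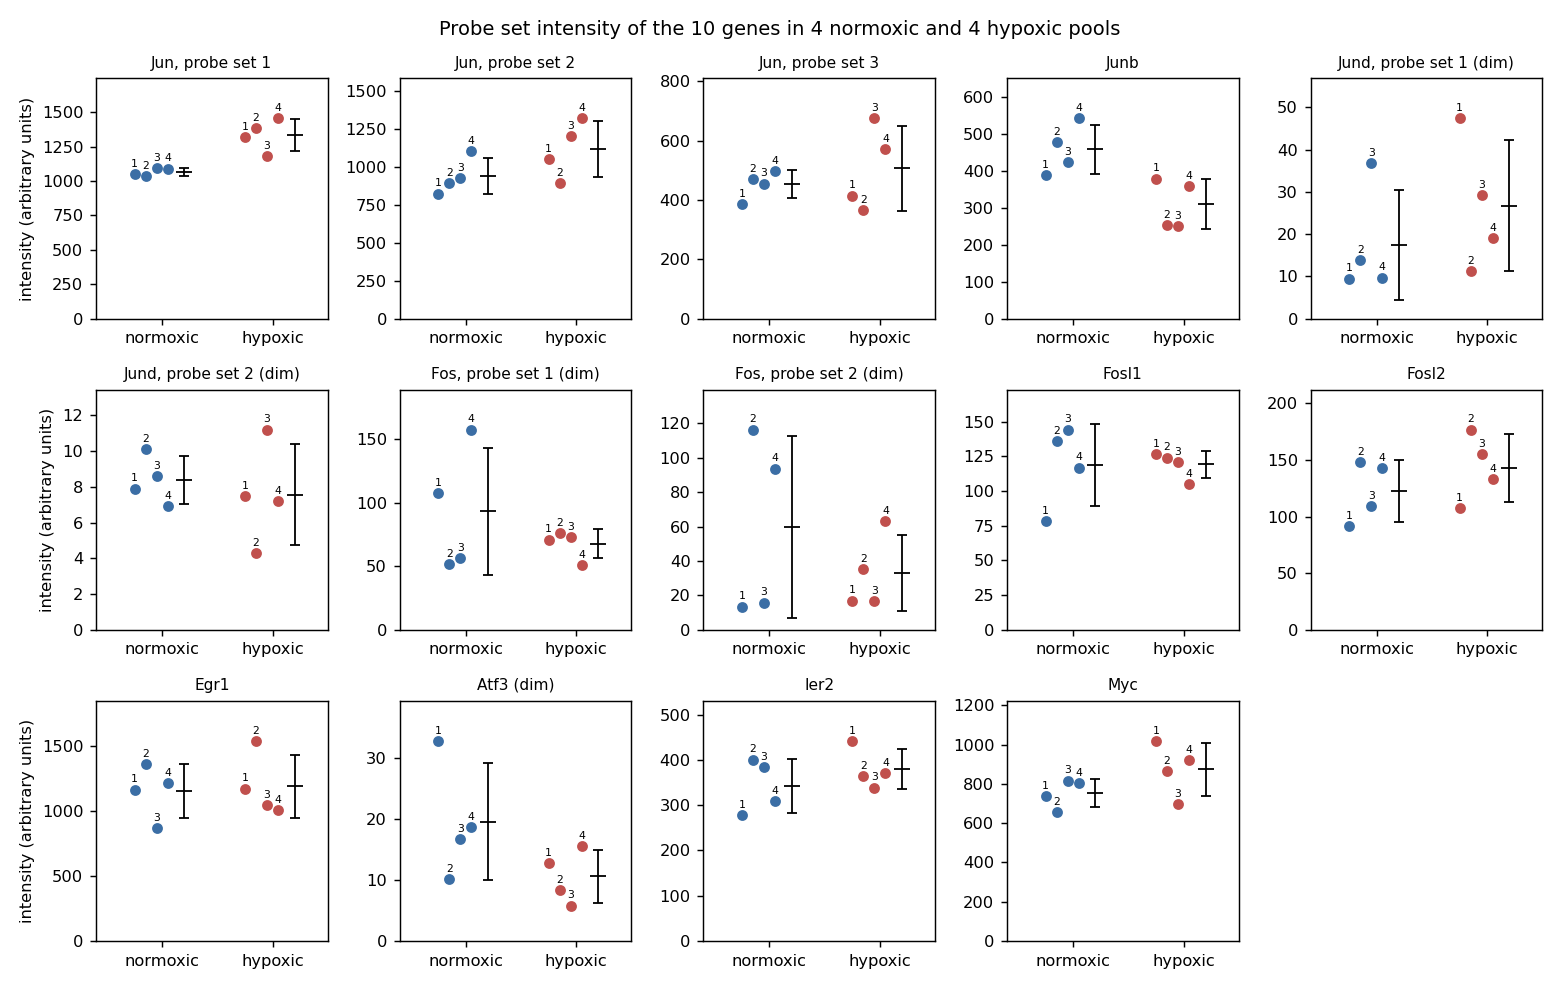
Intensity in arbitrary units (vertical axes from 0) of each of the 14 probe sets in 4 normoxic (blue) and 4 hypoxic (red) pools; points are pools with their number, and the black bar is the mean with its SD. The first Jun probe set and Junb are the tested ones whose groups do not overlap, with hypoxic means of 1336 against 1067.8 and of 310 against 458.

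The 250 bases before the start of Junb are shown because it had the widest difference of the tested members. Those of Ier2 are set beside it as another immediate early gene of chromosome 19. Both are from RefSeq, build GRCr8, plus strand, at chr19:40080876-40081125 and chr19:40399123-40399372, and run 5′ to 3′. Capitals mark matches on either strand to the motifs searched.
Junb: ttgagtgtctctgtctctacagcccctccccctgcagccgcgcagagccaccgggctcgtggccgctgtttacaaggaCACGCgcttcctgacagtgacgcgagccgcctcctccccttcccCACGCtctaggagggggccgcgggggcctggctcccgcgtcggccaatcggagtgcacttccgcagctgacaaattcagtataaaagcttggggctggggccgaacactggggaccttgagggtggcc
Ier2: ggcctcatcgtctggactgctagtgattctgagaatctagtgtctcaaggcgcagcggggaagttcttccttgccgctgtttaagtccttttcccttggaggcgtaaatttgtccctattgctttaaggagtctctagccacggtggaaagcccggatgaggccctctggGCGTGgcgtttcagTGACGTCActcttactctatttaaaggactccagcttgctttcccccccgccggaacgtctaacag

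The motifs searched on both strands were the AP-1 site TGACTCA, the cyclic AMP response element TGACGTCA, the E-box CACGTG, the hypoxia response cores ACGTG and GCGTG, and the serum response element core known as the CArG box. ACGTG is part of CACGTG. The promoter table held 6 of the 10 members (Junb, Jund, Fosl1, Fosl2, Egr1 and Ier2). In Junb the match is GCGTG on the opposite strand, at 172 to 168 and at 128 to 124 bases before the start, a motif held by 25.9% of all 33469 promoters in the same window. It was found in 4 of the 6 members (Junb, Jund, Fosl1 and Ier2), and ACGTG in 1 of the 6 (Egr1) and in 16.6% of all promoters. CACGTG was found in 0 of the 6 and in 5.59%. Ier2 holds TGACGTCA at 66 to 59 bases before its start, as does Jund further upstream, where 1.59% of all promoters hold it. The CArG box was found in Egr1, on 2 sites, and in 1.5% of all promoters. TGACTCA was found in 0 of the 6 and in 4.05% of all promoters. These are matches of letters only.

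Set against each other within a pool, Junb and Jun differed in opposite directions between the groups. The log2 ratio of Junb over the first Jun probe set was -1.40, -1.09, -1.34 and -0.99 in normoxic and -1.76, -2.38, -2.18 and -1.97 in hypoxic pools. The ratio averaged -1.20 ± 0.20 in normoxic and -2.07 ± 0.27 in hypoxic pools (SD, n = 4 each), a difference of -0.87. Since Jun was higher and Junb lower in every hypoxic pool, the ratio had to separate the groups, and no test is given for it. Against the second Jun probe set the difference was -0.80 and against the dimmest -0.68. The pair was chosen with the results of these pools known, so this is not independent evidence of a shift. The ratio is relative, and intensities of different probe sets do not show which transcript is the more abundant.

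**Figure D2:**
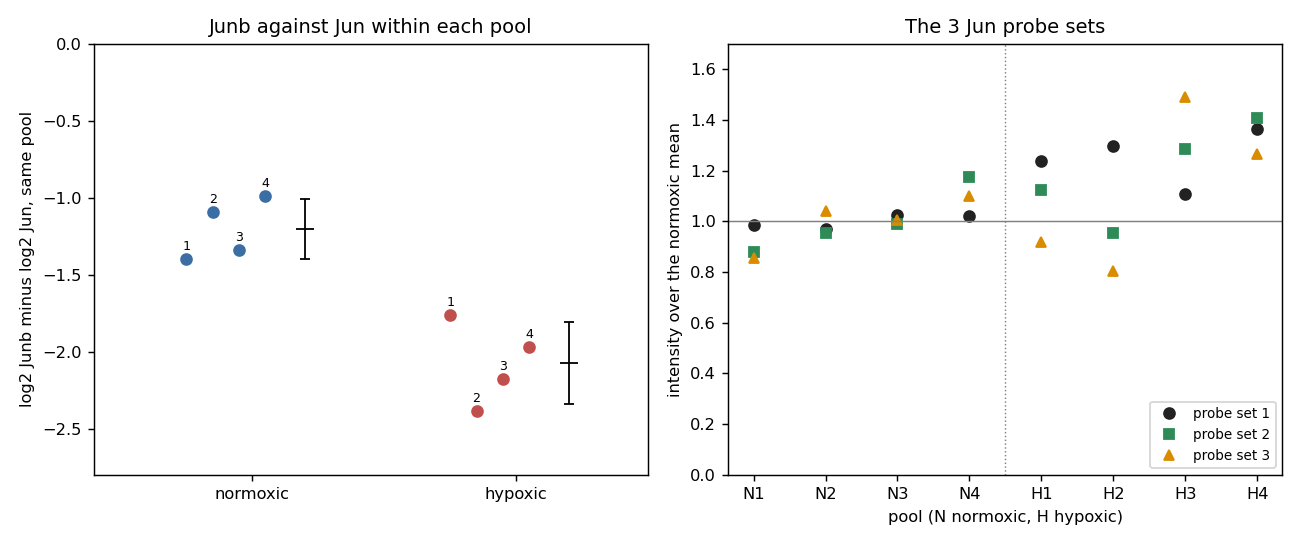
Left, the log2 intensity of Junb minus that of the first Jun probe set in each pool, with the mean and SD of each group as a black bar (-1.20 in normoxic and -2.07 in hypoxic pools). Right, the 3 Jun probe sets in each pool, each divided by its own normoxic mean; hypoxic pool 2 is above 1 on the first and below 1 on the others.

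Jund, which encodes JunD, a Jun protein also made in many resting cells, had no probe set clearly above background. The brighter read 9.5, 13.8, 36.8 and 9.7 in normoxic and 47.4, 11.3, 29.3 and 19.1 in hypoxic pools, and 1 of the 8 values exceeded the bacterial 95th percentile. The dimmer ran from 4.3 to 11.2. These values give no usable level of Jund.

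The Fos family showed no detectable difference, and Fos itself was dim. Fos encodes the c-Fos protein, the partner of c-Jun that appears first after a stimulus. Its brighter probe set read 107.3, 51.6, 56.2 and 157.6 in normoxic and 71, 76.3, 73.2 and 50.9 in hypoxic pools. Normoxic pools 1 and 4 stood above all others, and the groups overlapped. The log2 difference was -0.28 (95% interval -0.94 to 0.38) in the fit with no brightness filter. Leaving out normoxic pool 2 or 3 gave -0.47 or -0.44, normoxic pool 1 gave -0.19, hypoxic pool 4 gave -0.18 and normoxic pool 4 gave -0.021. The dimmer Fos probe set read 13.4, 116.3, 15.8 and 93.7 and then 16.9, 35.4, 16.7 and 63.3, with 3 of 8 pools above the bacterial 95th percentile. The 2 Fos probe sets did not follow each other over the pools (r = 0.03). Normoxic pools 1 and 4, the highest for the brighter Fos probe set, were also those with the highest summed adipose markers, 10157.4 and 9064.8 against 2970.4 and 3255.3 in normoxic pools 2 and 3. This was not particular to adipose markers. The fibroblast sums were 22248.7 and 20104.9 in normoxic pools 1 and 4 against 11159.9 and 12011.1 in normoxic pools 2 and 3. The outer cortex and capsule sums were 4047.8 and 3985.4 against 2555.8 and 2551.7. Which of these marker sets goes with Fos was not tested. Among hypoxic pools the adipose sums ran from 1690.6 to 6898.5 while Fos stayed between 50.9 and 76.3. The adipose covariate is the mean log2 level of the markers, a different measure from their summed intensity. With it the log2 difference of the brighter Fos probe set was -0.025 in place of -0.28, and that of the dimmer was -0.65 in place of -0.41.

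Fosl1 and Fosl2 encode Fra-1 and Fra-2, later and longer-lived Fos proteins. Fosl1 read 78.4, 135.7, 144.2 and 116.8 in normoxic and 126.6, 124, 121 and 104.9 in hypoxic pools, a log2 difference of 0.03 (95% interval -0.37 to 0.43). Its hypoxic pools all lay inside the normoxic range. Fosl2 read 91.4, 148.2, 108.9 and 142.7 and then 107.3, 176.8, 155 and 132.8, a log2 difference of 0.20 (95% interval -0.22 to 0.62; limma, adjusted p = 0.834). Its groups overlapped, with 2 hypoxic pools above the highest normoxic one. Leaving out normoxic pool 1 gave 0.082, hypoxic pool 2 gave 0.098 and hypoxic pool 1 gave 0.31. The difference was 0.11 with the Gapdh ratio and 0.080 with the adipose markers as a covariate.

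Egr1, a zinc finger factor induced by growth signals and by ACTH, was well above background in every pool and did not separate the groups. It read 1163.7, 1361.9, 864.6 and 1211.8 in normoxic and 1170.4, 1539.1, 1045.8 and 1008.4 in hypoxic pools. The log2 difference was 0.05 (95% interval -0.30 to 0.39; limma, adjusted p = 0.965), and its sign turned without normoxic pool 3 or hypoxic pool 2 and with either covariate. Ier2, a small nuclear protein gene induced alongside Fos, read 277.1, 400.4, 383.9 and 308 in normoxic and 442.1, 364.8, 338.4 and 370.9 in hypoxic pools. Its log2 difference was 0.15 (95% interval -0.16 to 0.46). Leaving out normoxic pool 1 gave 0.058, hypoxic pool 1 gave 0.076 and normoxic pool 2 gave 0.23. The difference was 0.059 with the adipose markers as a covariate.

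Myc, the growth factor-induced gene of the c-Myc transcription factor, leaned higher. It read 736.2, 656.5, 816.1 and 804 in normoxic and 1019.6, 864.1, 697.9 and 919.3 in hypoxic pools. The groups overlapped, with 3 hypoxic pools above the highest normoxic pool and hypoxic pool 3 among the lowest. The log2 difference was 0.20 (95% interval -0.07 to 0.48; limma, adjusted p = 0.703). It was 0.13 without hypoxic pool 1, 0.31 without hypoxic pool 3 and 0.36 with the Gapdh ratio as a covariate. Atf3, a stress-induced repressor of the ATF family, read 32.8, 10.1, 16.7 and 18.6 in normoxic and 12.8, 8.3, 5.8 and 15.5 in hypoxic pools, below the bacterial 95th percentile in all 8, so no level or difference can be given for it.

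**Figure D3:**
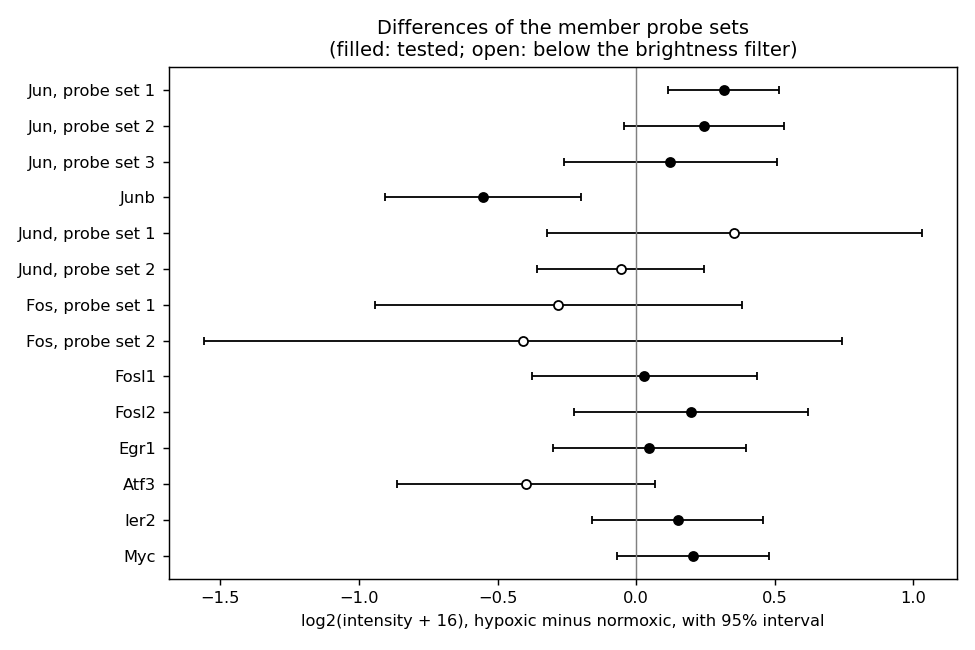
Difference in log2(intensity + 16), hypoxic minus normoxic, of the 14 member probe sets with 95% intervals; filled points were tested and open points lie below the brightness filter. The intervals of the first Jun probe set (0.11 to 0.52) and of Junb (-0.91 to -0.20) leave out 0, and those of the other 12 include it.

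No member's correlation with Fos from pool to pool passed after adjustment. Over 8 pools the brighter Fos probe set had its strongest correlation with Ier2, and it was negative (Pearson r = -0.71, exact permutation p = 0.0463; Spearman rho = -0.74, exact permutation p = 0.0458). Adjusted over the 9 correlations computed these were 0.416 and 0.412. Without normoxic pools 1 and 4, the farthest from the median, r was -0.16, so the relation rested on those pools. Jun, Junb, Fosl1, Fosl2, Egr1 and Myc had r between -0.43 and 0.26. Without the same pools Junb went from 0.26 to -0.78, so its sign also rested on them. Jund and Atf3 were within background, so their correlations are not read. The brighter Fos probe set was itself below the brightness filter, reading as low as 50.9 beside the background limit of 46.65. It did not follow the other Fos probe set (r = 0.03), so all of these correlations rest on a dim signal. Within groups, the deviations from the group means gave r = 0.03 for Junb, 0.29 for Egr1 and -0.68 for Ier2.

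Across 8010 other named genes, those with a pattern most like the first Jun probe set over the 8 pools were Reln (r = 0.97), Atxn10 (r = 0.95), Nmnat3 (r = 0.95) and Polr1c (r = 0.95). All 4 were higher in hypoxic pools on the log2 scale, by 0.61, 0.60, 0.47 and 0.35, so the group difference is part of the likeness. For Junb they were Pop4 (r = 0.95), Magoh (r = 0.94), Rpap2 (r = 0.93) and Lap3 (r = 0.93), each with a log2 difference below 0. For the brighter Fos probe set, which was below the brightness filter, they were Them4 (r = 0.95), Vasn (r = 0.93), Slc8a1 (r = 0.92) and Calu (r = 0.91). The highest of so many correlations over only 8 pools can be high with no relation between the genes, and this was not tested. These likenesses are given as a description.

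Other genes of the pathway, in 5 lists, gave 0 genes past the adjusted threshold in limma in either direction. Among 41 tested immediate early genes, 23 lay above and 18 below 0, with a median log2 difference of 0.01. At an unadjusted p of 0.05 there were 3 lower and 0 higher, beside 8.64% of all tested probe sets in either direction. The same 3 genes (Rgs2, Gadd45a and Klf2) had hypoxic pools all below the normoxic ones, as in 2.64% of all tested probe sets. Rgs2, a brake on G protein signalling, read 1179.3, 906.2, 970.1 and 1270.1 in normoxic and 859.1, 755.2, 734.3 and 547 in hypoxic pools, which did not overlap (log2 difference -0.57, standard error 0.15, adjusted p = 0.234). Its second probe set differed by -0.13 on the log2 scale. Gadd45a, a growth arrest and DNA damage gene, averaged 352 ± 28.4 and 272 ± 39.3 (SD, n = 4 each), a log2 difference of -0.37. Klf2, a zinc finger factor of endothelium and leukocytes, averaged 499.8 ± 45.8 and 402 ± 58.9 at its brightest probe set, a log2 difference of -0.31. Its other tested probe sets differed by -0.19 and -0.24, with groups that overlapped. Crebbp, a histone acetyltransferase coactivator placed in this list, differed by 0.26 at its brightest probe set and by 0.06 at its second.

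Nr4a1, which encodes the orphan receptor Nur77 and is switched on by ACTH, averaged 881 and 899, a log2 difference of 0.01. The related Nr4a3 differed by 0.08 at its brightest probe set. Its second probe set read 399.7, 427.8, 433.4 and 625.2 in normoxic and 376.3, 112.2, 120.2 and 70 in hypoxic pools. These did not overlap, as in 2.64% of all tested probe sets in that direction, with a log2 difference of -1.62 (limma, adjusted p = 0.159). Nr4a1 and Nr4a3 were singled out after their values were seen, and why the Nr4a3 probe sets differ was not tested.

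Among 12 upstream kinases and factors, 6 lay above and 6 below 0, with a median log2 difference of -0.02, and 2 were higher at an unadjusted p of 0.05, which 8.64% of all tested probe sets reached in either direction. Mapkapk2, a kinase downstream of p38, read 1483.6, 1417.4, 1485.1 and 1510.4 in normoxic and 1549.9, 1825.3, 1817 and 2053.8 in hypoxic pools (log2 difference 0.29, adjusted p = 0.407 in limma). Map2k1, which activates the ERK kinases, averaged 860 ± 52.9 and 1004.1 ± 17.0 (SD, n = 4 each), a log2 difference of 0.22. Neither gene's groups overlapped, and 2.76% of all tested probe sets had hypoxic pools all above the normoxic ones. Elk3 and Map2k2 differed by -0.10 and -0.08, and the second probe set of Elk3 by 0.03.

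Of 12 other AP-1 and bZIP partners, 6 lay above and 6 below 0 with a median of -0.01, and 0 had an unadjusted p under 0.05. The lowest p belonged to Atf1 (log2 difference -0.24), Batf3 (0.26), Atf4 (0.15) and Mafk (-0.28). In the Myc network 6 of 10 tested genes lay below 0, with a median of -0.15, and 2 were lower at an unadjusted p of 0.05, again beside 8.64% of all tested probe sets in either direction. These were Mxd4, which competes with Myc for the partner Max, at 838 ± 82.6 and 666 ± 88.0 (SD, n = 4 each; log2 difference -0.33), and Mlx at 831 ± 55.3 and 678 ± 93.8 (-0.30). Max itself differed by 0.19 at its brightest probe set and by -0.17 at its second, and Mxi1 differed by 0.20. Of 13 genes known as AP-1 targets, 9 lay above and 4 below 0, with a median of 0.03 and 0 at an unadjusted p under 0.05 at the brightest probe set. Ccnd1, which encodes cyclin D1 and was picked out after its values were seen, differed by 0.01 at its brightest probe set and by -0.27 and -0.37 at its other tested ones, the last with an adjusted p of 0.525 in limma and an unadjusted p under 0.05. Timp1, an inhibitor of matrix proteases, differed by -0.16 and the heme oxygenase gene Hmox1 by 0.13. The protease gene Plau differed by 0.15 at its brightest probe set and by 0.03 at its second. The chemokine gene Ccl2, which ran from 13.9 to 343.5 in normoxic pools alone, differed by 0.53.

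**Figure D4:**
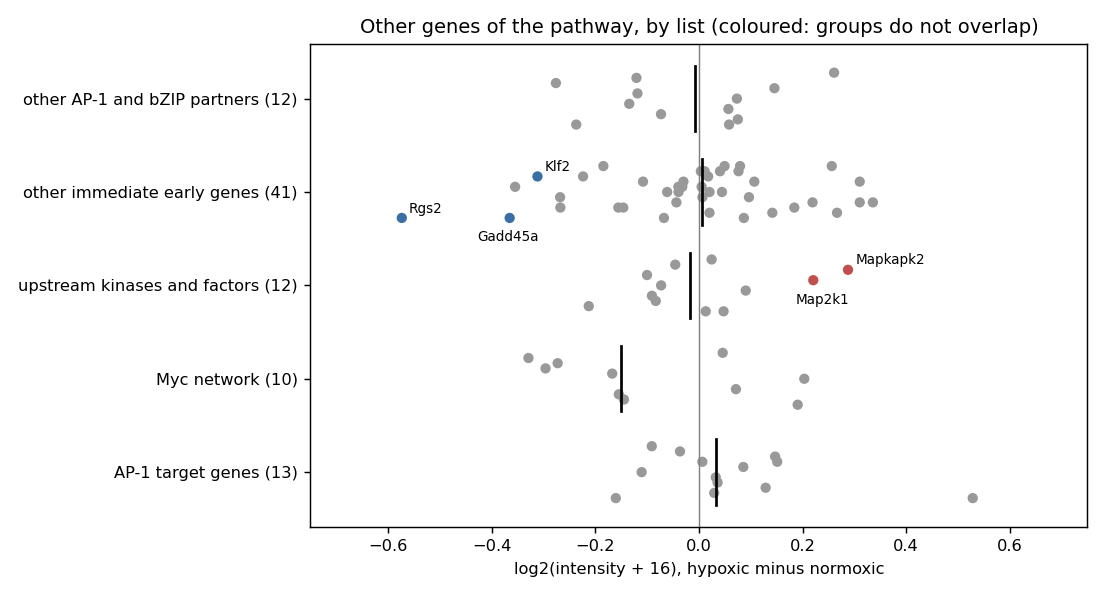
Each point is a tested gene at its brightest probe set, placed by its difference in log2(intensity + 16), hypoxic minus normoxic, with the number of genes in brackets and the list's median as a black line. The groups did not overlap for Rgs2, Gadd45a and Klf2 (blue, lower) and for Mapkapk2 and Map2k1 (red, higher), and the medians lie between -0.15 and 0.03. Over all tested probe sets, groups did not overlap in 2.64% (lower) and 2.76% (higher).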

How the data were processed

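The authors deposited 1 intensity per probe set and pool, not on a log scale. In the values themselves, the trimmed mean was 500.1 on all 8 arrays, so the authors had scaled each array. The tool that summarised probes is not given in these sources. Gene names came from the platform annotation, and all 14 member probe sets matched the RefSeq gene table (GRCr8) by gene ID. Values were floored at 1, 16 was added and log2 taken, a scale that understates changes of dim probe sets. Control probe sets and those under the 30th percentile of mean log2 (an intensity of 95.2) were left out, keeping 11106. This left out 5 member probe sets (both of Fos, both of Jund and Atf3), whose values come from a fit with no filter. The 2 groups were compared two-sided with limma 3.58.1 under R 4.3.3, using lmFit and eBayes with trend, and a probe set passed at 0.05 after Benjamini-Hochberg adjustment over all 11106. The steps were run on simulated data with known differences added, to check the sign and mean size of the estimates. How often a difference the size of Junb's would pass with 4 pools per group is not given here. Motif searches and plots used pandas 2.3.3 and matplotlib 3.10.9 under Python 3.11.15.

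The members, lists, tests and alternatives were chosen with earlier results of these data known. Named genes are all member probe sets, up to 4 genes with the lowest p in each list at the brightest tested probe set, and the 4 genes most like Jun, Junb and Fos. Nr4a1, Nr4a3 and Ccnd1 fall outside this rule and were picked out after their values were seen. The labels do not say whether equal pool numbers pair hypoxic with normoxic pools, so the numbers were not used as pairs. Deviations from the group means of same-numbered pools correlated at 0.32, 0.00, 0.19 and -0.04. Those of differently numbered pools correlated at -0.31 to 0.16, below the 0.32 and 0.19. These values do not settle whether the pools were paired. The number of arrays limits the precision.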

Additional observations from a re-analysis of the deposited data

Results flagged for a closer look

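In 3 of 68 groups of 4 pools looked at, a pool lay far from the other 3; chance gives this in about 1 of 20 groups. Normoxic pool 3 read 36.8 on the brighter Jund probe set, against 9.5 to 13.8 in the other normoxic pools, all within background. Hypoxic pool 4 read 314.5 for Klf2, against 418.4 to 439.3 in the other hypoxic pools. Hypoxic pool 3 read 437 for Crebbp, against 481.2 to 489.5.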

How the results depend on the processing

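The count of member probe sets past the threshold was 0 under all 18 alternatives (smallest adjusted p in limma from 0.164 to 0.594), and the 5 pathway lists gave 0 as well. The log2 difference of Junb stayed between -0.65 and -0.45 and that of the first Jun probe set between 0.27 and 0.39. Junb against Jun ran from -0.97 to -0.68 over its 14 alternatives, 2 of which (the other Jun probe sets) were added after seeing the data. Over all probe sets, the count of 20 was 0 with no filter, with no variance trend and with the Gapdh ratio as a covariate, 2 with the adipose markers as a covariate, and from 0 to 31 with 1 pool left out (0 on leaving out any of normoxic pools 1 to 3, hypoxic 2 or hypoxic 3, 1 for normoxic 4, 2 for hypoxic 4 and 31 for hypoxic 1). With the replicate number as a block it was 18, and the replicate block changed no member's call. Of 250 log2 differences of members recomputed, 8 turned in sign: Egr1 to -0.095 with the Gapdh ratio and -0.012 with the adipose markers (from -0.081 to 0.13 with 1 pool left out), Fosl1 to -0.092 with the adipose markers (from -0.13 to 0.12), the dimmest Jun probe set (from -0.025 to 0.26) and the dimmer Jund probe set (from -0.13 to 0.013). The correlation of Fos with Myc turned to 0.0071 after quantile normalization (from -0.36 to 0.10 with 1 pool left out), and with 1 pool left out that with Fosl2 ran from -0.35 to 0.21 and that with Junb from -0.34 to 0.47. The stricter filter left Fosl1 and Fosl2 untested. The cause of these shifts was not tested. Dim probe sets limit what can be said of Fos, Jund and Atf3.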
